A study of Mus musculus with 6 samples.

Results

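Basophils and mast cells are granule-bearing myeloid cells that carry the high-affinity IgE receptor FceRI and store proteases, histamine and heparin-like proteoglycans in their granules. Of the genes that mark them, 6 were followed here in donor hematopoietic stem and progenitor cells (HSPCs): the granule proteases Mcpt8, Prss34 and Cpa3, the FceRI chains Fcer1a and Ms4a2, and the transcription factor Gata2. They were taken by name from a table of 24965 genes, and all 6 were present and passed the filter that left 13739 genes for testing. The table holds FPKM values, fragments scaled to the length of the gene and to the total of the library.

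The libraries were made from CD45.2+ donor cells sorted out of irradiated CD45.1+ recipients 6 h after they were given donor bone marrow (BM), 3 from WT and 3 from Hemgn-/- donors. Recipients of both groups had received a split dose of 9 Gy, and cells from untransplanted mice were not analysed here. Hemgn-/- is a whole-body disruption made with zinc finger nucleases on the C57BL/6 background, and the study used young adult male and female mice with matched WT littermates as controls. The labels name the sorted cells as lineage-negative and Sca-1-positive, and the study's methods add c-Kit to this gate. Below, HSPCs means the cells sorted with this gate, and the purity of the sort was not tested. Transcripts of the neutrophil granule gene Ngp far exceeded those of the progenitor markers Kit, Cd34 and Ly6a in every library. A difference between the groups can therefore not be assigned to stem and progenitor cells alone.

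In the mouse, Mcpt8 and Prss34 encode serine proteases found mainly in basophils, while the carboxypeptidase Cpa3 is stored by both basophils and mast cells and is also transcribed in early progenitors. Fcer1a encodes the chain of FceRI that binds IgE, and Ms4a2 encodes the chain that amplifies its signal. The third chain, encoded by Fcer1g, is shared with other Fc receptors. Gata2 is required in hematopoietic stem cells and again when basophils and mast cells arise, where it acts on genes that hold GATA sites.

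The promoters are shown because Gata2 is one of the genes followed and the remaining ones are known to be transcribed in cells that need it. RefSeq (GRCm38.p6) held windows for all 6 genes, 7 in all because Gata2 has a pair of start sites. The 250 bases before each start were searched on both strands for the GATA motif in the forms AGATAA or else AGATAG, and likewise TGATAA or else TGATAG, and matches were found in 4 of the 7 windows, those of Prss34, Cpa3, Ms4a2 and Fcer1a. Over all 32851 promoter windows of this length 26.5% held such a match. The motif TTCNNNGAA, which STAT5 can bind, was in 0 of the 7 windows and in 7.02% of all windows. The last 150 bases before the start of the 4 genes with a match are given here, 5′ to 3′ on the strand of the gene, with the GATA matches in capitals. They lie at chr17:25298244-25298393 on the plus strand (Prss34) and, on the minus strand, at chr3:20242182-20242331 (Cpa3), chr19:11623720-11623869 (Ms4a2) and chr1:173227230-173227379 (Fcer1a).
Prss34: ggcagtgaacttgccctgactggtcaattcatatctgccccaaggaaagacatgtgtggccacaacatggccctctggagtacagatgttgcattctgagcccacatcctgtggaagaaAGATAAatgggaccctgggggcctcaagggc
Cpa3: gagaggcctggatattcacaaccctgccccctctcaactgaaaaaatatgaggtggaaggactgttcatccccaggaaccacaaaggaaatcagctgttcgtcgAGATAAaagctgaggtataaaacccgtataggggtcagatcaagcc
Ms4a2: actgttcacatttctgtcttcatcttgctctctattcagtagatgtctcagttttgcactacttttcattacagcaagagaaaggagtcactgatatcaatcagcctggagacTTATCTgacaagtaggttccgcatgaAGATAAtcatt
Fcer1a: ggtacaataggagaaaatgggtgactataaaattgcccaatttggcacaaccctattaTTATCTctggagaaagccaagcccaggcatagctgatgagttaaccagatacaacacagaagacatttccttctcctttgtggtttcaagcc
The match of Prss34 began 31 bases before the start, that of Cpa3 46 bases and that of Fcer1a 92 bases. The RefSeq start of Fcer1a lies outside the span of the gene in GENCODE M21, so its distance holds for the RefSeq start alone. Ms4a2 had 3 matches, of which the one 224 bases before the start lies outside the printed stretch. A match of letters does not show that a factor was bound in these cells.

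None of the 6 genes differed between Hemgn-/- and WT HSPCs at an adjusted p under 0.05 (0 of 6 by limma on log2(FPKM + 1) with Benjamini-Hochberg adjustment over all genes, and 0 of 6 by limma's voom on recovered fragments), where 6.46% of all genes tested passed with the first (4.37% higher and 2.09% lower) and 7.76% with voom. Mcpt8 and Prss34, the most abundant of the 6, had nearly the same mean in both groups. Cpa3, Ms4a2 and Fcer1a had higher means in Hemgn-/- HSPCs, and these 3 genes had an unadjusted p under 0.05 (15% of all genes had such a p in that direction). The median log2 fold change of the 6 genes was 0.16, against 0.087 for all genes tested, and 4 of the 6 were above 0. The 6 genes were chosen with earlier results of these data known. In bulk RNA, fewer cells of a type and less RNA per cell cannot be told apart.

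**Figure D1:**
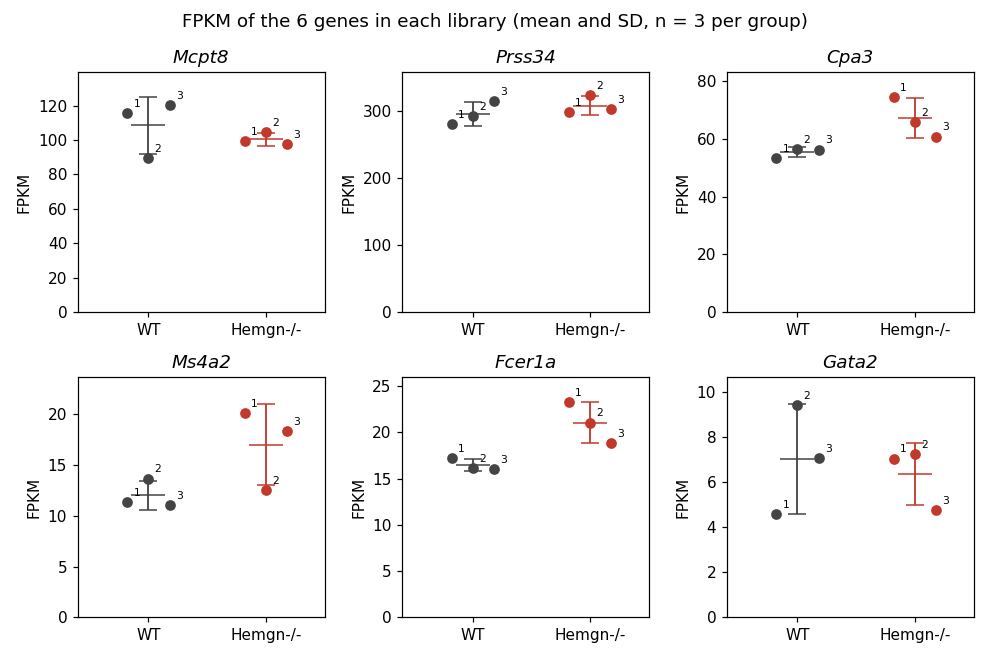
Each panel plots the FPKM of 1 gene (y axis, from 0) in the WT and Hemgn-/- libraries, with points numbered by replicate and bars for the mean and SD (n = 3 each). The points of Cpa3 and Fcer1a do not overlap between the groups, while those of Mcpt8, Prss34, Ms4a2 and Gata2 do.

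The levels were ordered alike in both groups. Per length, Prss34 was highest (279.5 to 323 FPKM over the 6 libraries), followed by Mcpt8 (89.6 to 120.5), Cpa3 (53.4 to 74.6), Fcer1a (16.0 to 23.2), Ms4a2 (11.0 to 20.1) and Gata2 (4.59 to 9.43). Neighbours in this order did not overlap, with the exception of Fcer1a and Ms4a2, and Fcer1a was above Ms4a2 in 6 of 6 libraries. Prss34 ranked 122 by mean FPKM among the 24965 genes and Mcpt8 ranked 421, whereas Gata2 ranked 5304. The summed FPKM of the 6 genes was 477 to 525 in WT and 502 to 534 in Hemgn-/- libraries, so the groups overlapped.

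Mcpt8 (ENSMUSG00000022157) spans bases 56082166 to 56085273 of chromosome 14 (minus strand, GRCm38, GENCODE M21). It was at 115.6, 89.6 and 120.5 FPKM in WT replicates 1, 2 and 3 and at 99.3, 104.5 and 97.5 FPKM in Hemgn-/- replicates 1, 2 and 3. All 3 Hemgn-/- values fell between the lowest and the highest WT value. These values stand for 2289 to 3332 fragments. The log2 fold change was −0.10 (standard error 0.11, 95% interval −0.35 to 0.15, adjusted p = 0.639 from limma). WT replicate 2 was the lowest of the 6 libraries, and without it the log2 fold change was −0.23 (adjusted p = 0.125).

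Prss34 (ENSMUSG00000056399) spans bases 25298394 to 25300165 of chromosome 17 (plus strand). Its values were 279.5, 292 and 314 FPKM in WT and 297, 323 and 302 FPKM in Hemgn-/- replicates 1, 2 and 3. The groups overlapped, and the 6 libraries lay within a 1.15-fold range, the narrowest of the 6 genes. The log2 fold change was 0.059 (standard error 0.067, 95% interval −0.093 to 0.21, adjusted p = 0.650 from limma), and it was −0.044 with median-ratio scaling between libraries.

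Cpa3 (ENSMUSG00000001865) spans bases 20215620 to 20242181 of chromosome 3 (minus strand). It was at 53.4, 56.4 and 56.3 FPKM in WT replicates and at 74.6, 66.0 and 60.8 FPKM in Hemgn-/- replicates. Every Hemgn-/- library was above every WT library, a separation in this direction that 19.2% of all genes tested showed. The Hemgn-/- libraries spread more widely (67.1 ± 6.96 FPKM against 55.4 ± 1.69 FPKM in WT, SD, n = 3 each). The log2 fold change was 0.27 (standard error 0.088, 95% interval 0.068 to 0.47, adjusted p = 0.120 from limma). When each library was rescaled to the same FPKM total, it was 0.36 (adjusted p = 0.0459).

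Fcer1a (ENSMUSG00000005339) spans bases 173221284 to 173227214 of chromosome 1 (minus strand). WT replicates were at 17.2, 16.1 and 16.0 FPKM and Hemgn-/- replicates at 23.2, 21.1 and 18.9 FPKM. The groups did not overlap here either, and the lowest Hemgn-/- library was Hemgn-/- replicate 3, as for Cpa3. With 407 to 636 fragments per library it had the fewest fragments of the 6 genes. The log2 fold change was 0.33 (standard error 0.099, 95% interval 0.11 to 0.56, adjusted p = 0.0917 from limma), and 0.42 (adjusted p = 0.0395) after rescaling to the same FPKM total.

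Ms4a2 (ENSMUSG00000024680) spans bases 11615523 to 11623719 of chromosome 19 (minus strand). WT replicates were at 11.3, 13.7 and 11.0 FPKM and Hemgn-/- replicates at 20.1, 12.5 and 18.4 FPKM. Hemgn-/- replicate 2 lay inside the WT range, while Hemgn-/- replicates 1 and 3 were above all WT libraries. The log2 fold change was 0.45 (standard error 0.17, 95% interval 0.065 to 0.84, adjusted p = 0.170 from limma). Without Hemgn-/- replicate 2 it was 0.64 and passed the threshold (adjusted p = 0.0374), so the call turned on this library.

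Gata2 (ENSMUSG00000015053) spans bases 88193891 to 88207032 of chromosome 6 (plus strand). It was at 4.59, 9.43 and 7.06 FPKM in WT and at 7.05, 7.26 and 4.77 FPKM in Hemgn-/- replicates. Both groups held low and high libraries, and the 6 values spanned a 2.06-fold range, the widest of the 6 genes. The log2 fold change was −0.097 (standard error 0.23, 95% interval −0.63 to 0.43, adjusted p = 0.846 from limma). It was above 0 without WT replicate 2 (0.11) and without Hemgn-/- replicate 3 (0.069), so no direction can be given.

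**Figure D2:**
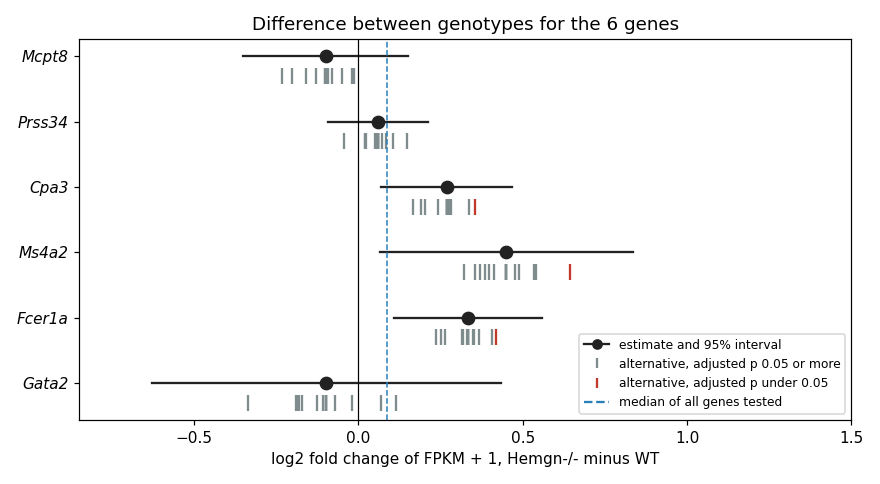
For each gene the point and line give the log2 fold change of FPKM + 1 (Hemgn-/- minus WT, x axis) with its 95% interval, and the ticks beneath give the same value under each of 15 alternatives, in red where the adjusted p was under 0.05. Red ticks appear for Cpa3, Ms4a2 and Fcer1a, 1 each, and the intervals of Mcpt8, Prss34 and Gata2 span 0.

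Scaling between libraries nearly cancels in a ratio of 2 genes of the same library, so each gene was also set against Gata2. On the scale of log2(FPKM + 1), Ms4a2 exceeded Gata2 by 0.74 ± 0.35 in WT and 1.28 ± 0.52 in Hemgn-/- libraries, and Fcer1a by 1.17 ± 0.50 and 1.60 ± 0.18 (SD, n = 3 each). For Cpa3 the ratio was 2.86 ± 0.41 in WT and 3.22 ± 0.20 in Hemgn-/- libraries. The differences of these 3 ratios were 0.55, 0.43 and 0.37, and those of Prss34 and Mcpt8 were 0.16 and −0.0029. With 3 libraries against 3 the exact two-sided permutation test cannot give a p below 0.1, so no ratio could pass 0.05, and the p-values ran from 0.2 to 1 (0.5 to 1 after Benjamini-Hochberg adjustment over 5 ratios). The groups overlapped for all 5 ratios.

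Over the 6 libraries the genes did not all move together. Cpa3 and Fcer1a had the closest pattern (Pearson r = 0.94 of log2(FPKM + 1)), and both were less close to Ms4a2 (r = 0.72 and 0.66). Mcpt8 was not close to Prss34 (r = 0.13), with which it shares its main cell type, and it ran against Ms4a2 (r = −0.63). Gata2 had an r between −0.42 and 0.32 with each of the other 5 genes. These r values are descriptions over 6 libraries that share 2 genotypes, and no p is attached to them.

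Among 6292 genes tested with a mean of at least 5 FPKM, the most alike in pattern over the 6 libraries were ranked for each gene. The highest r were with Mrpl28, Nudcd2 and Tmed10 for Mcpt8 (0.97 to 0.99), with Uchl3, Zfp180 and Psme2 for Prss34 (0.97 to 0.98), and with Hif1a, Fkbp8 and Slpi for Cpa3 (all 0.99). For Ms4a2 they were with Ntmt1, Trip11 and Pfkl (all 0.99), for Fcer1a with Rnf123 (0.99) and Mirt1 (0.98), and for Gata2 with Rnf6, Usp25 and Gm23638 (0.97 to 1.00). Between 7 and 45 genes reached an r above 0.95 with each of the 6.

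Besides the 6 genes, the wider program of these cells was read from 5 lists by role, with 112 genes of which 95 were tested. The lists were chosen with earlier results of these data known, so their shares are a description. Their median log2 fold change was 0.11. Over the lists together 14 genes were higher and 3 lower in Hemgn-/- HSPCs at an adjusted p under 0.05 (17.9% of those tested, 6.46% of all genes). The calls stood on few libraries, and 6 of these 17 genes (Cd63, Ptpn6, Ccl6, Ptgs2, Osm and Irf8) passed with each of the 6 libraries left out in turn. Many of these genes are also expressed in other myeloid cells or in B cells. Over all genes tested 600 were higher and 287 lower, a split that became 340 against 386 when median-ratio scaling was used, 368 against 346 with quantile normalization and 1059 against 238 with equal FPKM totals.

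Among granule proteases and granule storage genes, 11 of 20 were tested and 0 passed by limma or by voom, with 1 at an unadjusted p under 0.05 (Cpa3). The median log2 fold change was 0.059. Hdc, the enzyme that makes histamine, was at 299, 290.4 and 316 FPKM in WT and at 318, 284 and 293 FPKM in Hemgn-/- replicates, and the groups overlapped. Slc18a2, which loads histamine into granules, averaged 19.1 ± 1.14 FPKM in WT libraries against 19.2 ± 3.85 in Hemgn-/- libraries (SD, n = 3 each). Transcripts of connective tissue mast cell proteases were near the floor. Cma1, a chymase, ranged from 0.91 to 1.13 FPKM among WT and from 0.64 to 1.68 among Hemgn-/- libraries. Tpsb2, a tryptase, was at 0.25 FPKM in WT replicate 2 and listed at 0 in the other 5 libraries.

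Among surface receptors, 22 of 26 were tested, and 3 were higher and 2 lower at an adjusted p under 0.05. At this threshold 4.37% of all genes tested were higher and 2.09% lower. The median log2 fold change of the receptors was 0.16. Il3ra and Csf2rb encode the chains of the receptor for interleukin 3, the main growth factor of basophils. Il3ra was at 4.16, 3.40 and 2.85 FPKM in WT and at 5.37, 6.06 and 5.88 FPKM in Hemgn-/- replicates (log2 fold change 0.61, adjusted p = 0.0382 from limma). Csf2rb rose from 85.2 ± 7.58 to 116.5 ± 5.41 FPKM and Il4ra, a chain of the interleukin 4 receptor, from 33.6 ± 1.66 to 44.4 ± 1.69 FPKM (SD, n = 3 each). All 3 separated the groups. The 2 lower genes were Cd63, a tetraspanin of granule membranes (112.9 ± 3.68 FPKM fell to 72.1 ± 7.79), and Ms4a3, which is expressed in granulocyte-monocyte progenitors (14.9 ± 1.02 to 8.51 ± 1.66). Fcer1g, the shared signaling chain of FceRI, was at 266 ± 18.3 and 297 ± 32.8 FPKM and overlapped between the groups (adjusted p = 0.389 from limma). The count of 5 was 3 when WT replicate 1 or Hemgn-/- replicate 2 was left out and 1 when WT replicate 3 or Hemgn-/- replicate 3 was. Il3ra lost its call with 5 of the 6 libraries left out, Il4ra with 4, and Csf2rb and Ms4a3 with 3 each. With median-ratio scaling 1 receptor was higher and 3 were lower.

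Among 21 signaling genes downstream of FceRI, all tested, 5 were higher and 0 lower in Hemgn-/- HSPCs at an adjusted p under 0.05. At this threshold 4.37% of all genes tested were higher and 2.09% lower. The median log2 fold change of the signaling genes was 0.24, and 19 of the 21 were above 0, as were 63.0% of all genes tested. Lyn, the kinase that phosphorylates the receptor chains, rose from 111 ± 8.39 to 142 ± 3.92 FPKM, and Btk, a kinase that activates phospholipase C, from 39.7 ± 0.127 to 50.5 ± 0.233 FPKM (SD, n = 3 each). Ptpn6, a phosphatase that restrains the pathway, rose from 245 ± 5.01 to 322 ± 15.4 FPKM. The adaptor Lat2 (log2 fold change 0.51, adjusted p = 0.0429 from limma) and the kinase subunit Pik3cd (0.36, adjusted p = 0.0392) also rose. Lat2 lost its call with each of the 6 libraries left out, and Btk, Lyn and Pik3cd each lost theirs with 5 of them. The count of signaling genes called was 1 when WT replicate 1, WT replicate 3, Hemgn-/- replicate 2 or Hemgn-/- replicate 3 was left out, and 2 when Hemgn-/- replicate 1 was. Median-ratio scaling gave 1 gene and equal FPKM totals gave 8. The summed FPKM of the B cell marker list ranged from 1185 to 1245 among WT and from 1396 to 1577 among Hemgn-/- libraries. Lyn, Btk and Lat2 are also expressed in B cells, and the part of those cells in the result was not tested.

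Among 15 mediators tested of 17, the median log2 fold change was 0.23. With 4.37% of all genes higher and 2.09% lower at an adjusted p under 0.05, 5 mediators were higher and 0 lower. They were the chemokines Ccl6 (462 ± 9.80 to 649 ± 52.5 FPKM) and Ccl9 (34.1 ± 1.08 to 45.3 ± 4.82 FPKM), the prostaglandin synthase Ptgs2 (57.9 ± 2.21 to 78.7 ± 0.922 FPKM) and the cytokines Osm (534 ± 37.9 to 714 ± 11.2 FPKM) and Tnf (48.9 ± 6.61 to 67.6 ± 5.55 FPKM; SD, n = 3 each). The count was 3 without WT replicate 1, WT replicate 2, WT replicate 3 or Hemgn-/- replicate 1. Tnf lost its call with each of the 6 libraries left out, and Ccl9 with 5 of them. Il4, a cytokine that activated basophils secrete, stayed under 1 FPKM in every library (0.26 to 0.83 in WT and 0.30 to 0.72 in Hemgn-/-) and was not tested.

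Among transcription factors, 26 of 28 were tested, and 1 was higher and 1 lower at an adjusted p under 0.05. This is near the share over all genes tested (4.37% higher and 2.09% lower). The median log2 fold change of the transcription factors was −0.0099. Irf8, which in myeloid progenitors favors the monocyte and dendritic cell fate and is also needed for basophil progenitors, rose from 39.2 ± 0.609 to 66.7 ± 1.89 FPKM (log2 fold change 0.75, adjusted p = 6.6e-04 from limma). Spi1, a master regulator of myeloid genes, was at 179, 335 and 219.6 FPKM in WT and at 150.3, 115 and 91.8 FPKM in Hemgn-/- replicates (log2 fold change −1.01, adjusted p = 0.0399). Its call was lost without WT replicate 2, WT replicate 3, Hemgn-/- replicate 2 or Hemgn-/- replicate 3. Gata1, which follows Gata2 in the mast cell and basophil lineages, was at 3.52 ± 0.613 and 3.93 ± 0.513 FPKM, and Cebpa, which directs progenitors toward basophils, at 1.61 ± 0.582 and 1.65 ± 0.401 FPKM. Mitf, a regulator of mast cell genes, stayed under 1 FPKM in every library (0.31 to 0.86) and was not tested.

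**Figure D3:**
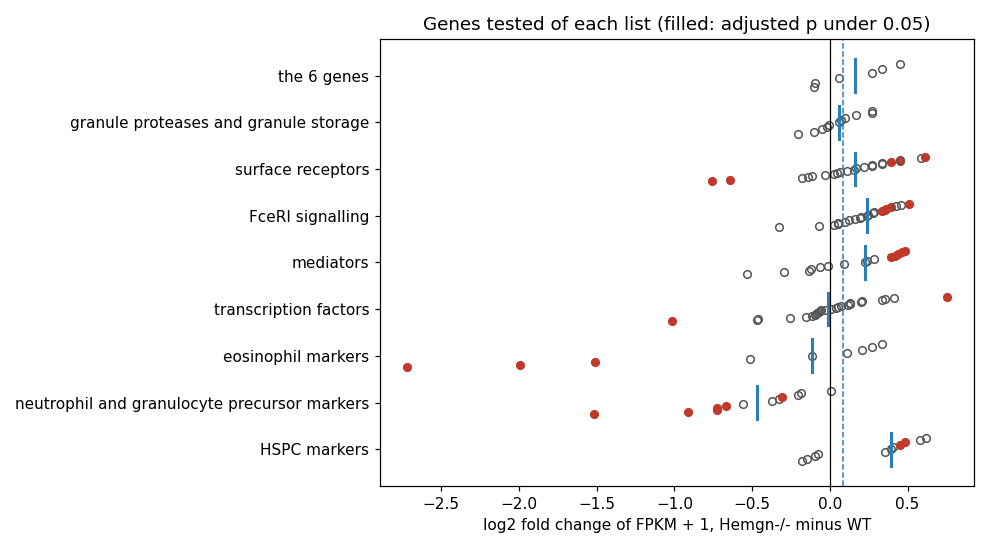
Each circle is 1 tested gene placed at its log2 fold change (Hemgn-/- minus WT, x axis), filled in red at an adjusted p under 0.05, with a blue bar at each list's median and a dashed line at the median of all genes (0.087). None of the 6 genes is filled, and the leftmost circles among the lists drawn are eosinophil markers.

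The group was set beside markers of basophils and of mast cells. The basophil list holds all 6 genes and the mast cell list 3 of them, so neither checks the label independently. Of 13 basophil markers, 12 were tested, 2 were higher (Il3ra and Ccl9) and 1 lower (Ms4a3). Over all genes tested 4.37% were higher and 2.09% lower at an adjusted p under 0.05. The summed FPKM of the basophil list was 821 to 895 in WT and 854 to 900 in Hemgn-/- libraries. The 6 genes alone summed to 477 to 525 in WT and 502 to 534 in Hemgn-/- libraries. Cd200r3, a receptor of mature basophils, was low, with 1.33 to 1.95 FPKM over the 6 libraries. Of 13 mast cell markers 8 were in the table, 6 were tested and 0 passed by limma, with 3 at an unadjusted p under 0.05 (Cpa3, Ms4a2 and Fcer1a, which are in both lists). The summed FPKM of the mast cell list was 108.7 to 112.7 among WT and 122.6 to 148.2 among Hemgn-/- libraries, without overlap, and Cpa3 alone held 53.4 to 74.6 of it. Mast cell markers that basophils lack (Cma1, Tpsb2 and Mitf) were under 2 FPKM in every library. Kit, the receptor for stem cell factor, averaged 6.58 ± 0.581 FPKM among WT and 5.68 ± 0.206 among Hemgn-/- libraries without overlap (adjusted p = 0.398 from limma). Of all genes tested, 19.2% separated the groups in the higher direction, and the share in the lower direction is not given here.

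The libraries also held transcripts of mature cells, and part of these differed with genotype. Ngp, a neutrophil granule gene, ranged from 43176 to 46692 FPKM among WT and from 26488 to 27961 among Hemgn-/- libraries, far above Kit, Cd34 (7.23 to 11.9 FPKM over the 6 libraries) and Ly6a, the gene of Sca-1 (8.27 to 17.3 FPKM). Over all genes tested 4.37% were higher and 2.09% lower at an adjusted p under 0.05, the threshold of the counts that follow. Of 12 neutrophil and granulocyte precursor markers 6 were lower and 0 higher. The summed FPKM of these markers was 75050 to 80888 in WT and 48998 to 54313 in Hemgn-/- libraries. Their part in the values of the 6 genes was not tested. Cell types with markers called higher in Hemgn-/- libraries were T and NK cells (3 of 8 tested), plasmacytoid dendritic cells (3 of 7) and HSPCs (2 of 11, of which Cd34 lost its call with each of the 6 libraries left out), erythroid markers were lower (4 of 9), macrophage markers split (2 higher and 1 lower of 8), and 0 of 5 megakaryocyte and 0 of 5 endothelial markers passed by limma (1 and 2 at an unadjusted p under 0.05). Hemgn itself, the disrupted gene, was lower (log2 fold change −1.37, adjusted p = 0.0114 from limma), a call lost without WT replicate 3. Depth ranged from 23668021 to 28897371 fragments per library.

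Eosinophils share progenitors with basophils and mast cells, and 3 of their granule genes were lower in Hemgn-/- HSPCs. Over the 9 eosinophil markers the median log2 fold change was −0.12, and 4 of the 9 were above 0. Of 9 eosinophil markers tested 3 were lower at an adjusted p under 0.05 and 0 higher, namely Prg2, Epx and Prg3 (2.09% of all genes were lower at this threshold). Prg2, the major basic protein, was at 263, 233 and 290.3 FPKM in WT and at 56.7, 68.0 and 70.4 FPKM in Hemgn-/- replicates (log2 fold change −1.99, standard error 0.11, adjusted p = 2.9e-05 from limma). Siglecf, a surface lectin of mature eosinophils, was at 12.9 ± 3.38 and 15.0 ± 3.17 FPKM and overlapped between the groups. The 3 lower genes encode granule proteins, and Epx and Prg3 were named after their values were seen. The 6 markers not called include the ribonuclease genes Ear1, Ear2 and Ear6, so the fall was not shown for eosinophil granule genes as a class.

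This was set against the 6 genes as the ratio of each to Prg2 within a library, a comparison chosen after the values were seen. On the log2(FPKM + 1) scale Prss34 exceeded Prg2 by 0.17 ± 0.13 in WT and by 2.23 ± 0.14 in Hemgn-/- libraries, and Mcpt8 went from 1.27 ± 0.095 below Prg2 to 0.62 ± 0.17 above it (SD, n = 3 each). The difference between genotypes was 1.89 for Mcpt8, 1.90 for Gata2, 2.05 for Prss34, 2.26 for Cpa3, 2.33 for Fcer1a and 2.45 for Ms4a2. Groups did not overlap for any of the 6 ratios. As Prg2 was taken for its own fall, which is larger than the difference of any of the 6 genes, this separation follows from the choice, and the ratios are given as a description with no test.

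**Figure D4:**
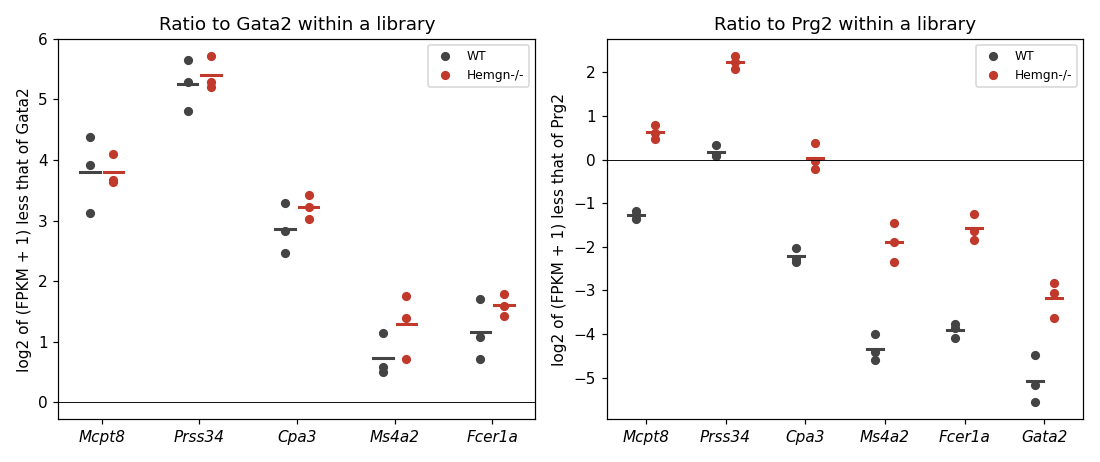
The left panel plots log2(FPKM + 1) of each gene less that of Gata2, and the right panel the same less that of Prg2, with 1 point per library and bars for group means (n = 3 each). The genotypes overlap on the left, and on the right every Hemgn-/- point lies above every WT point of the same gene, as follows from the fall of Prg2.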

How the data were processed

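RNA of donor cells was sequenced from 3 WT and 3 Hemgn-/- samples, grouped by the genotype in the labels. Values are FPKM as the authors deposited them, with a column for each library (0 columns unmapped). The submitters' processing notes name Bowtie2 2.2.3, HISAT2 2.1.0, TopHat2 and HTSeq 0.6.0, with no roles, and GRCm38, and the annotation is not given in the sources used here. The labels and the study's methods differ on the library kit, Smart-Seq2 in the latter, which amplifies cDNA. Fragments are then not independent molecules, and precision is read from the spread between libraries.

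Symbols, coordinates and exon lengths came from GENCODE M21 (24921 of 24965 genes matched). Depth was recovered from the steps of low FPKM values, of which 95.2% to 95.6% per library came out whole within 0.05 fragments (values up to 100 fragments). Recovered fragments of Prss34 were not whole with this length and are not given.

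A gene was tested if 1 library or more exceeded 1 FPKM, as log2(FPKM + 1) by limma 3.58.1 (R 4.3.3; lmFit, eBayes with a trend, no covariate), two-sided, with Benjamini-Hochberg adjustment over all genes. Fold changes on this scale understate those of low genes. The methods call the samples biological replicates, and whether each came from its own recipient is not stated, so p-values measure the spread between these samples. The method was checked on simulated data. Alternatives were another pseudocount, other filters and scalings, eBayes without a trend, a replicate block, voom on recovered fragments and leaving out each library. The genes and lists were chosen with earlier results of these data known. Genes named are the 6, those called in the role lists (at most 8 per list), defining genes of the lineages, and the 2 highest genes of the basophil, mast cell, eosinophil, neutrophil and HSPC marker lists. Epx and Prg3 were named after their values were seen, and Ear1, Ear2 and Ear6 as eosinophil markers not called. For the other marker lists counts or sums alone are given, which narrows the rule set at the start. Some genes are not reported here. Tables and plots were made in Python 3.11.15 (pandas 2.3.3, matplotlib 3.10.9).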

Additional observations from a re-analysis of the deposited data

How the results depend on the processing

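Of 90 values of the 6 genes (6 genes under 15 alternatives), 84 kept their direction and their side of the adjusted p of 0.05. Rescaling to the same FPKM total brought Cpa3 (0.36) and Fcer1a (0.42) past the threshold, which made 2 of the 6 genes called in place of 0, and median-ratio scaling put Prss34 at −0.044. Scaling moved the median of all genes from 0.087 to 0.0052 (median-ratio) or 0.16 (same total). With a library left out, Ms4a2 ranged from 0.32 to 0.64, Gata2 from −0.34 to 0.11, and 0 or 1 of the 6 genes passed.
Without a filter 466 genes passed over the table, without a trend 390, and with each library left out 373 to 688. The list counts without a filter were 3 receptors, 2 FceRI signaling genes, 2 mediators and 1 transcription factor, and without a trend 1, 0, 0 and 1. FceRI signaling had 1 gene with median-ratio scaling, 1 with quantile normalization and 8 after rescaling to the same total, where granule genes had 1. With a library left out the counts were 1 to 4 receptors, 1 to 4 signaling genes, 3 to 4 mediators and 1 to 2 transcription factors.
Same-numbered libraries did not deviate together (r = −0.043, −0.0094 and 0.011), which gives no sign that the numbers pair the samples but cannot exclude it. With the replicate block 636 genes, 3 receptors and 2 FceRI signaling genes passed and 0 of the 6 genes.
The ratio to Gata2 of Mcpt8 was 0.0056 with a pseudocount of 0.1 and ranged from −0.35 to 0.29 with a library left out, and that of Prss34 from −0.063 to 0.36. Of the other named genes, none of which had passed, Hdc (0.069) and Slc18a2 (0.076) turned after rescaling to the same total, Cd200r3 (−0.017 and −0.022) and Cebpa (−0.022 and −0.029) with median-ratio scaling and quantile normalization, and S100a9 (0.195) with quantile normalization. With a library left out Hdc ranged from −0.065 to 0.015, Cd200r3 from −0.012 to 0.16, Cma1 from −0.28 to 0.076, Cebpa from −0.15 to 0.18 and Slc18a2 from −0.16 to 0.10. The cause was not tested.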
